A study of Homo sapiens with 12 samples.

Results

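The 9 genes described here encode stretch-activated channels and sensors of nuclear membrane tension: PIEZO1, PIEZO2, TRPV4, TRPM7, TMEM63A, TMEM63B, KCNK2, PANX1 and PLA2G4A. They were taken by name from 20037 protein-coding genes on the autosomes, X and Y. Accessible sites were assigned to a gene when the summit, the position of highest signal, lay inside the RefSeq gene span or within 10 kb of it. This rule gave 57 of the 188019 summits in the list, in 48 intervals.

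Chromatin accessibility was measured by ATAC-seq, in which a transposase tags open DNA, in HT1080, an established human fibrosarcoma cell line. Cells were kept for 48 h in rat tail type-I collagen at 0.3 mg/mL (low), 1.0 mg/mL (medium) or 1.7 mg/mL (high), with 4 libraries per concentration and 12 in all. All 3 groups received the broad matrix metalloproteinase inhibitor GM6001 at 20 μM, so every group shared the inhibitor, and all libraries come from 1 cell line. The list analysed here is pooled over the series and has no value per library or concentration. No value below compares concentrations, the spread between replicates was not measured, and the depth per library is unknown. Of 8 mesenchymal marker genes, 7 had a summit within 1000 bp of a listed start or, where no start was listed, of either gene end; THY1 had none there. The same held for 2 of 4 epithelial markers, EPCAM (enrichment 2.11) and KRT18 (1.75), and for 1 of 4 blood and endothelial markers, CD3E (14.5), against 67.7% of coding genes at a listed start and 65.7% at either end. The summits counted for CD3E and for the mesenchymal marker SNAI2, neither with a listed start, lay just outside the gene span. The 6 mesenchymal markers with a listed start had a median enrichment of 9.23 there, with VIM lowest at 6.64. The median of coding genes with a start summit was 12.3. By pileup, the number of overlapping tags at a summit, the order differed and VIM was highest at 2703. AXL (2643), CD44 (1241) and FN1 (1216) also lay above the coding-gene median of 822, and CDH2 (561) and S100A4 (430) below it. Some markers of other cell types had strong sites inside the gene, so these markers were not closed throughout. Enrichments there reached 12.7 in KRT18, 12.5 in CDH1, 16.0 in PECAM1, 10.1 in PTPRC and 9.41 in CDH5.

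Stretch-activated channels open when the membrane around them is pulled, and let ions, often calcium, flow along their gradients. In cells squeezed through dense matrix, the nuclear envelope is stretched as well. Cytosolic phospholipase A2, the product of PLA2G4A, binds the stretched inner nuclear membrane after calcium release and frees arachidonic acid, a step known to raise actomyosin contractility in confined cells. ATAC-seq shows which regulatory DNA of these genes is open. It does not measure the channels or their activity.

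Enrichment below is the authors' fold value at each summit, the signal pileup over a local background. The pileup, the number of overlapping tags, and the background were recovered from the deposited enrichment and p-value. Each interval in brackets is a 95% exact Poisson interval on the pileup with the background held fixed. It covers counting error only and takes tags as independent. Amplified reads are not independent molecules, so the true error can be larger, also where intervals did not overlap. A percentile ranks a gene's strongest summit within 1000 bp of a listed start among the 10718 protein-coding genes that had such a summit.

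Open starts were found for 6 of the 8 members whose start the promoter table lists, and no start of TRPV4 was listed. Across protein-coding genes with a listed start the share was 67.7%, so the members' count was near that of genes in general. The 6 were TMEM63B, TRPM7, PANX1, TMEM63A, PIEZO1 and PIEZO2, in falling order of enrichment from 15.8 to 3.05. The 2 without a summit at any listed start were KCNK2 and PLA2G4A. The median enrichment of the 6 start summits was 9.65, against 12.3 (quartiles 7.89 and 15.0) for coding genes in general, which placed it at the 33.4th percentile. Every one of the 9 members had at least 1 summit in its span or within 10 kb, as did 89.8% of coding genes.

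Promoter sequences are shown because the members with and without an open start differed in CpG content, the density of C followed by G. Each run gives the 250 bases before the listed start, 5′ to 3′ on the gene's strand, from RefSeq (GRCh38.p14), with each CpG in capitals. They lie at chr15:50686798-50687047 (TRPM7, minus strand), chr6:44127304-44127553 (TMEM63B, plus), chr16:88785221-88785470 (PIEZO1, minus), chr18:11149570-11149819 (PIEZO2, minus), chr11:94128591-94128840 (PANX1, plus), chr1:215005292-215005541 (KCNK2, plus) and chr1:186828699-186828948 (PLA2G4A, plus).
TRPM7: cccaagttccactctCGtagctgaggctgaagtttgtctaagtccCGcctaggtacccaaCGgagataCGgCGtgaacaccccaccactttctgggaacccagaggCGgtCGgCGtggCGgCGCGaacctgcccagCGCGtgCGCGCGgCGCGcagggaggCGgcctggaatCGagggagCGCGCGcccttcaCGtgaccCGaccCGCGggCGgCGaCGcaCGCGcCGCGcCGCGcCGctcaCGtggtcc
TMEM63B, downstream start: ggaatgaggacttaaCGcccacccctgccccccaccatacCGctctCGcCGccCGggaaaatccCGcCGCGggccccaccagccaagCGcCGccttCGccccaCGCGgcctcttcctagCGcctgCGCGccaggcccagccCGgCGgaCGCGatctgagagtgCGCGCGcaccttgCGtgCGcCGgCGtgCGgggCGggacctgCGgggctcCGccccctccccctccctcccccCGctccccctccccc
PIEZO1: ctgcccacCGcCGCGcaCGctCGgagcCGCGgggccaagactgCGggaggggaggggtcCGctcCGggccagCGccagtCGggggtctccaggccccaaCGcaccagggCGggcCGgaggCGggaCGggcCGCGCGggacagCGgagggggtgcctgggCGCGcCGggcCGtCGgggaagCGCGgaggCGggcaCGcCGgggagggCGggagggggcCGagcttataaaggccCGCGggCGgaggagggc
PIEZO2: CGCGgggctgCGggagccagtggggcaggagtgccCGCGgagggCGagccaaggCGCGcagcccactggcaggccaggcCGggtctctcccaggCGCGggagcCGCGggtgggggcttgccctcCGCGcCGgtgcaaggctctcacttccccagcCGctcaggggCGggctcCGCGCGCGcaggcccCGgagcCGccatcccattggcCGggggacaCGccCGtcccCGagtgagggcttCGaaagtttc
PANX1: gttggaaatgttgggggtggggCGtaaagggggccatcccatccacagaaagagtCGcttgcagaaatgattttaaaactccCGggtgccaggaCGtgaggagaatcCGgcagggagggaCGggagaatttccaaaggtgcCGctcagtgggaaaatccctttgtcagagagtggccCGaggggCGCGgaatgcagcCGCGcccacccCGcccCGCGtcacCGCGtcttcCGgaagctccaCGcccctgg
KCNK2, upstream start: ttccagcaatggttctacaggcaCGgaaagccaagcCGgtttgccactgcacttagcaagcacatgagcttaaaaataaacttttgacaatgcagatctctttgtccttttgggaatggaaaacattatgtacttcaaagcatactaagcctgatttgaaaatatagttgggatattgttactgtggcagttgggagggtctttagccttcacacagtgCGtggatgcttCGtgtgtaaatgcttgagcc
PLA2G4A: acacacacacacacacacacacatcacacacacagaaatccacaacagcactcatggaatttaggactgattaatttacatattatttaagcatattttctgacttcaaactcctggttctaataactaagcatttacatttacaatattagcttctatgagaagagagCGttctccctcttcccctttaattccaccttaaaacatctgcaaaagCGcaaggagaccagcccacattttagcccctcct

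The printed stretch held 38 CpGs at TRPM7, 32 at the downstream start of TMEM63B, 36 at PIEZO1, 29 at PIEZO2 and 19 at PANX1. It held 4 at the upstream start of KCNK2 and 2 at PLA2G4A. Not printed are TMEM63A, with 26 in the same 250 bases, the downstream KCNK2 start, with 8, and the upstream TMEM63B start, with 3. The last of these counted as open, so the contrast in CpG content did not hold at every listed start. Over the full promoter window of 300 bases, which runs 50 bases past the start, 22199 coding-gene promoters had a median of 7.00 CpGs per 100 bases. The median was 8.67 where a summit lay within 1000 bp and 2.00 where none did. TRPM7 had 16.0 CpGs per 100 bases, PIEZO1 14.7, the downstream TMEM63B start 13.3, PIEZO2 12.7, TMEM63A 10.0 and PANX1 8. The starts without a summit had 1.00 (PLA2G4A), 1.67 (KCNK2, upstream) and 4.67 (KCNK2, downstream).

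Among promoters in the same CpG class, rounded to a whole number per 100 bases, 18.2% of those like PLA2G4A had a summit. The share was 29.1% for those like the upstream and 67.5% for those like the downstream KCNK2 start. For those like PIEZO2 it was 87.8%. PIEZO2 thus had a promoter of a class that is mostly open and yet the lowest start enrichment of the 6. Within the 6 open members the order by CpG content was not the order by enrichment: PIEZO1 came next after TRPM7 in CpG content, but had a lower enrichment than all but PIEZO2. The upstream TMEM63B start, with 1.33 CpGs per 100 bases, counted as open because the summit lay 528 bp downstream of it, nearer to the other start.

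**Figure D1:**
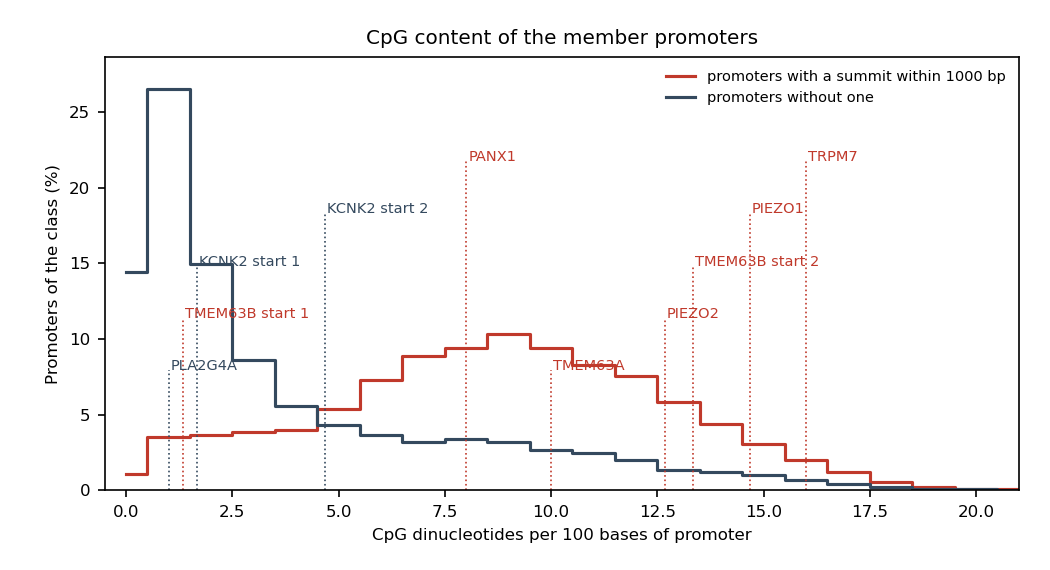
CpG dinucleotides per 100 bases (x axis) of 22199 protein-coding promoters with a summit within 1000 bp (red line) or without (dark line), as percent of each class (y axis, bins of 1). Dotted lines mark the 10 member promoters, coloured by class; their heights only separate the names, and the starts of KCNK2 and PLA2G4A lie at 1.00 to 4.67.

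Short motifs were searched on both strands of the same 300 bases, and no matches of different motifs overlapped. The GC box (GGGCGG), the site of SP-family factors, occurred 4 times at PIEZO1, 4 times at the downstream TMEM63B start and once each at TRPM7, PIEZO2 and PANX1. It occurred in 56.3% of all coding promoters, in 70.2% of those with a summit and in 32.9% of those without. PIEZO1 also held the TATA sequence (TATAAA), beginning 27 bases before its start, which 9.47% of promoters share. The share was 5.18% of promoters with a summit and 16.7% of those without. The TEAD motif (GGAATG), bound by the partners of the mechanosensitive coactivator YAP, was found at PANX1 (63 bases before the start), at the downstream TMEM63B start and at the upstream KCNK2 start, against 12.2% of promoters. CCAAT was found at PIEZO2 and TMEM63A, in both 48 bases before the start, against 34.7%. The AP-1 motif (TGANTCA) was in none of the 10 member promoters and in 6.15% of all (5.03% with a summit, 8.03% without). A match is a run of letters and not a shown binding site.

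**Figure D2:**
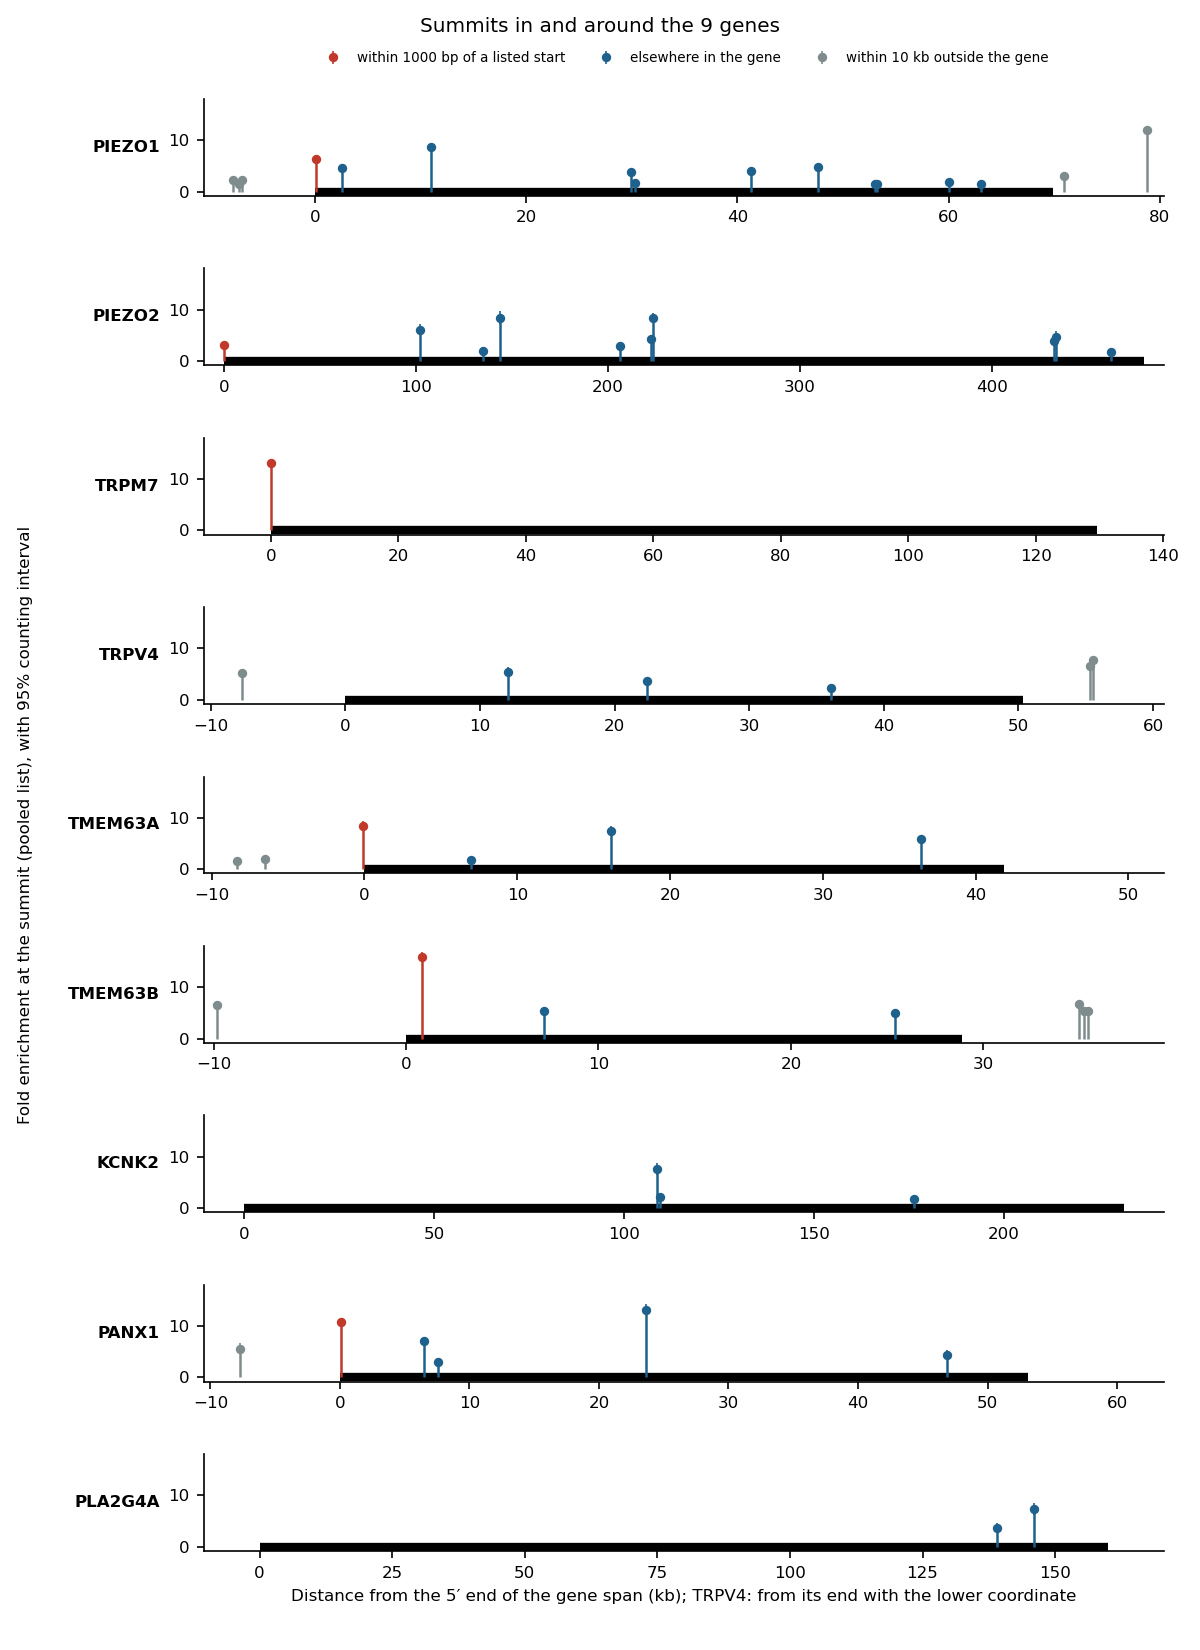
Fold enrichment (y axis) of each of the 57 summits against distance in kb from the 5′ end of the gene (x axis, own scale per gene; for TRPV4 from the end with the lower coordinate). Red marks summits within 1000 bp of a listed start, blue those elsewhere in the gene (black bar), grey those up to 10 kb outside, stems run from 0 to the value, and the short bars at the points are 95% counting intervals; TRPM7 has 1 summit, while those inside PIEZO2 lie 102 kb or more from the start.

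PIEZO1 and PIEZO2 encode large trimeric channels that open directly under membrane tension and pass cations including calcium. PIEZO1 acts in many non-excitable tissues, and PIEZO2 is best known for touch and body-position sensing in sensory neurons. PIEZO1 (chromosome 16, 88715338 to 88785220, minus strand, 69.9 kb) had 16 summits, the most of any member. Its density of 17.8 summits per 100 kb of gene and flanks was at the 92.5th percentile of coding genes, whose median was 5.89. Of the 16, 1 lay at the start, 10 elsewhere in the gene and 5 in the flanks, and 8 had a −log10 q below 10. Without those 8 the density was 8.90 per 100 kb.

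The PIEZO1 start summit lay 68 bp into the gene with an enrichment of 6.37 (5.88 to 6.89) and a pileup of 625 over a background of 97.2. That background was 4.79 times the genome-wide level of 20.3, the highest ratio at any member start. By enrichment the start ranked at the 19.5th percentile and by pileup at the 39.5th. The strongest summit in the gene lay 11.0 kb downstream, with an enrichment of 8.70 (7.98 to 9.46) and a pileup of 543 over a background of 61.5. By enrichment the internal site exceeded the start with intervals that did not overlap, and by pileup the start was the higher. Further sites within PIEZO1 reached 4.54 at 2.60 kb, 4.81 at 47.7 kb and 3.99 at 41.2 kb from the start. The site at 47.7 kb also lies in the long noncoding RNA gene HSALR1, and that at 41.2 kb in the antisense gene PIEZO1-AS1.

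The highest enrichment in the PIEZO1 window, 11.98 (11.2 to 12.8), lay 8.88 kb beyond the 3′ end, within 1000 bp of the starts of CTU2, a gene of transfer RNA thiolation, and RNF166, a ubiquitin ligase gene. It belongs by position to those neighbours. Another flank summit (3.01) fell inside CTU2. Upstream of PIEZO1, 3 weak summits of 1 interval lay 6.94 to 7.77 kb from the start, with enrichments of 1.58 to 2.28.

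PIEZO2 (chromosome 18, 10670247 to 11149569, minus strand) is the longest member at 479 kb. It held 10 summits, 2.00 per 100 kb, at the 18.8th percentile of density. By the count alone PIEZO2 stood at the 91.6th percentile of coding genes, whose median was 3 summits. The start summit lay 40 bp upstream of the start with an enrichment of 3.05 (2.36 to 3.88) and a pileup of 64, at the 8.64th percentile. This was the weakest start summit of the 6 by enrichment, pileup and −log10 q. All 9 internal summits lay at least 102 kb from it. The strongest were at 144 kb (8.44, 7.26 to 9.77) and at 223 kb (8.34, 7.41 to 9.37), and their intervals overlapped each other but not that of the start. Next came a site at 102 kb with 6.10 (5.10 to 7.24). A pair of sites near the 3′ end, at 432 and 434 kb, had 3.99 and 4.74. The gene thus had its higher enrichments at internal sites, in pileup (up to 285) as well as in enrichment.

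TRPM7 and TRPV4 belong to the transient receptor potential family. TRPM7 joins a channel permeable to magnesium and calcium to a kinase domain, and TRPV4 responds to swelling, shear and warmth. TRPM7 (chromosome 15, 50557158 to 50686797, minus strand, 130 kb) had a single summit in its span and flanks. It lay 20 bp upstream of the start with an enrichment of 13.0 (12.1 to 13.9) and a pileup of 828, at the 56.6th percentile. The start of LOC128092252, a coding gene model inside the TRPM7 span, was within 1000 bp of the same summit. A start summit with no other summit in the span or within 10 kb was present in 11.3% of coding genes with an open start. TRPM7 accordingly had the lowest density of the 9 members, 0.668 summits per 100 kb.

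TRPV4 (chromosome 12, 109783087 to 109833398, 50.3 kb) had 6 summits, none within 1000 bp of either end. A summit within 1000 bp of either end was present in 65.7% of coding genes, and in 6 of the 9 members. The 3 summits inside TRPV4 had enrichments of 5.50 (4.67 to 6.43), 3.61 (2.90 to 4.44) and 2.34 (1.80 to 2.99), at 12.1, 22.4 and 36.1 kb from the end with the lower coordinate. The strongest sites lay outside the gene. At 4.99 and 5.22 kb beyond the end with the higher coordinate, 2 summits of 1 interval had 6.57 (5.90 to 7.29) and 7.78 (7.05 to 8.57). On the other side a summit 7.65 kb away had 5.21 and was nearer to the coding gene FAM222A.

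TMEM63A and TMEM63B are vertebrate relatives of the plant OSCA channels and open under high membrane tension or osmotic change. In this pooled list TMEM63B had the higher start enrichment of these paralogues. TMEM63B (chromosome 6, 44126633 to 44155519, plus strand, 28.9 kb) had the highest start enrichment of the 9 members, 15.8 (14.9 to 16.7), with a pileup of 1138, at the 82.7th percentile by enrichment and the 63.7th by pileup. The summit lay 112 bp upstream of the downstream start listed for TMEM63B. It also lay inside MRPL14, a gene for a mitochondrial ribosomal protein, and within 1000 bp of the start of MRPL14, so the site is shared by position. TMEM63A (chromosome 1, 225840556 to 225882380, minus strand, 41.8 kb) had a start enrichment of 8.43 (7.59 to 9.35) and a pileup of 361, 80 bp upstream of the start and at the 27.4th percentile. The 2 intervals, which cover counting error only, did not overlap. Spread between replicates was not measured, and the TMEM63B value comes from the site shared with MRPL14.

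Inside TMEM63A the strongest other summits were 7.49 (6.58 to 8.50) at 16.2 kb and 5.96 (5.27 to 6.72) at 36.4 kb from the start. The counting interval of the former overlapped that of the start. Its 2 upstream flank summits were weak (1.91 and 1.63) and nearer to LEFTY1, a gene of left-right patterning. TMEM63B had internal sites of 5.28 (4.50 to 6.16) at 6.23 kb and 4.98 (4.31 to 5.72) at 24.5 kb. Its 4 flank summits ranged from 5.31 to 6.76, of which 3 lay in CAPN11, a calpain gene, and 1 in MRPL14.

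KCNK2 encodes TREK-1, a K2P potassium channel that opens with stretch and hyperpolarises the membrane. The gene (chromosome 1, 215005542 to 215237090, plus strand, 232 kb) had no summit within 1000 bp of either listed start. The nearest summit to the upstream start was 14.7 kb away, outside the gene, and the nearest to the downstream start was 31.6 kb away. That site, inside the gene, had an enrichment of 7.50 (6.39 to 8.76) and a pileup of 159. It shared its interval with a weaker summit of 2.06 (1.51 to 2.76). The third summit of the gene, 99.0 kb from the downstream start, had 1.78 and a pileup of 37. A summit elsewhere in the span was present in 46.4% of coding genes that had no summit at a listed start, and in both KCNK2 and PLA2G4A. Both genes are longer than the median coding gene of 24115 bp, and the 46.4% was not matched for length.

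PANX1 forms large-pore membrane channels that release ATP, with mechanical stress among their triggers. The gene (chromosome 11, 94128841 to 94181968, plus strand, 53.1 kb) had 6 summits in 6 intervals, all with a −log10 q above 10. The start summit, 71 bp into the gene, had an enrichment of 10.9 (10.1 to 11.6) and a pileup of 846. It ranked at the 40.0th percentile by enrichment, the 51.1th by pileup and the 48.6th by −log10 q. A site 23.6 kb downstream had the highest enrichment of the gene, 13.1 (12.05 to 14.2), over a background of 42.7 against 77.0 at the start. Its interval did not overlap that of the start, whereas in pileup it was lower, 572 against 846. As the strongest site away from a start it ranked at the 84.8th percentile of coding genes with such a site, the highest rank of the 9 members. The other internal summits had 7.12 (6.48 kb), 3.00 (7.60 kb) and 4.37 (46.9 kb), and the upstream flank summit at 7.69 kb had 5.61 and was nearer to HEPHL1.

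PLA2G4A (chromosome 1, 186828949 to 186988981, plus strand, 160 kb) had 2 summits, both far from the start. They lay 139 kb (3.71, 2.94 to 4.61) and 146 kb (7.32, 6.22 to 8.56) downstream, in the 3′ part of the gene, with pileups of 78 and 155. The nearest summit to the start was 35.9 kb away. This distance was at the 93.4th percentile of coding genes, whose median distance was 153 bp, and that of KCNK2 was at the 87.1th. Both genes had a density near 1.1 summits per 100 kb (1.11 for PLA2G4A and 1.19 for KCNK2), at the 12.9th and 13.3th percentiles. By the number of summits alone PLA2G4A stood at the 31.6th and KCNK2 at the 46.9th percentile. With summits of a −log10 q of at least 10 alone, PLA2G4A kept 1.11 and KCNK2 had 0.398, and with each interval counted once KCNK2 had 0.795.

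**Figure D3:**
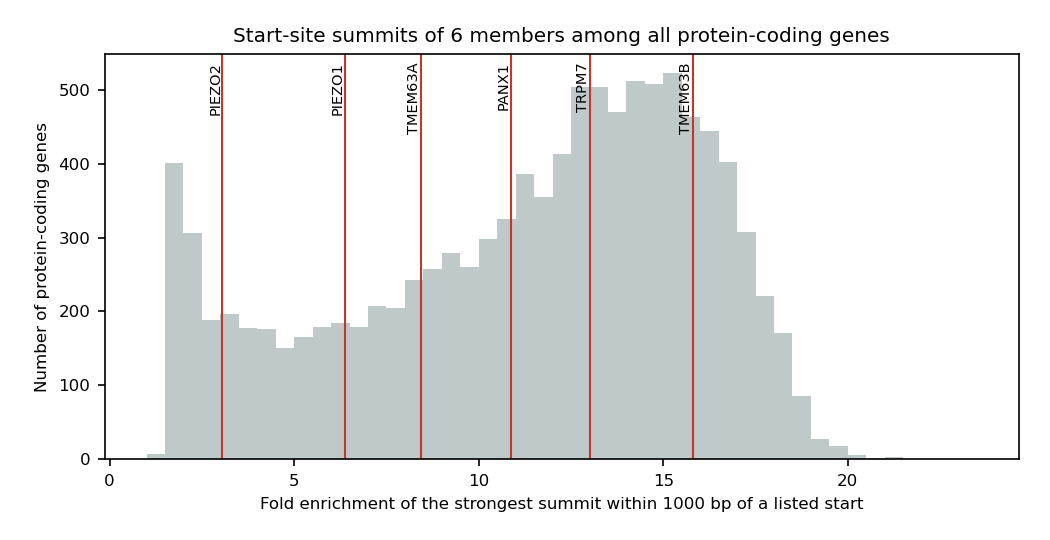
Number of protein-coding genes (y axis) by fold enrichment of the strongest summit within 1000 bp of a listed start (x axis, bins of 0.5), with red lines at the 6 members that had one. Of the 6, TRPM7 and TMEM63B lie above the median of 12.3 and PIEZO2 lies in the low tail at 3.05.

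Where a start was open, PIEZO1, PIEZO2 and PANX1 had a summit of higher enrichment elsewhere in the gene, while TRPM7, TMEM63A and TMEM63B did not. Among coding genes with a start summit 18.3% had a stronger one elsewhere in the span. That share was not matched for gene length. The median length of all coding genes was 24115 bp, and PANX1 (53.1 kb), PIEZO1 (69.9 kb) and PIEZO2 (479 kb) are longer. The ratio of start to strongest internal enrichment was 0.361 in PIEZO2, 0.732 in PIEZO1, 0.829 in PANX1, 1.13 in TMEM63A and 2.99 in TMEM63B. Start summits lay in longer intervals, with a median of 1104 bp, than the remaining intervals of the members, with a median of 598 bp.

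The local background differed between the members. It stood more than 0.2% above the genome-wide level of 20.3, the tolerance used here, at 44 of the 57 summits (77.2%), against 47.0% of all summits in the list. This was so for all summits of PIEZO1, TRPM7, TRPV4, TMEM63A, TMEM63B and PANX1, for 2 of 10 in PIEZO2 and for none of 3 in KCNK2 or 2 in PLA2G4A. PIEZO1 alone gave 16 of the 44, and summits of 1 gene are not independent. No comparison was made with summits near other genes. At PIEZO1 and PANX1 the order of start and internal site turned when pileup was used in place of enrichment; at PIEZO2 it did not.

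**Figure D4:**
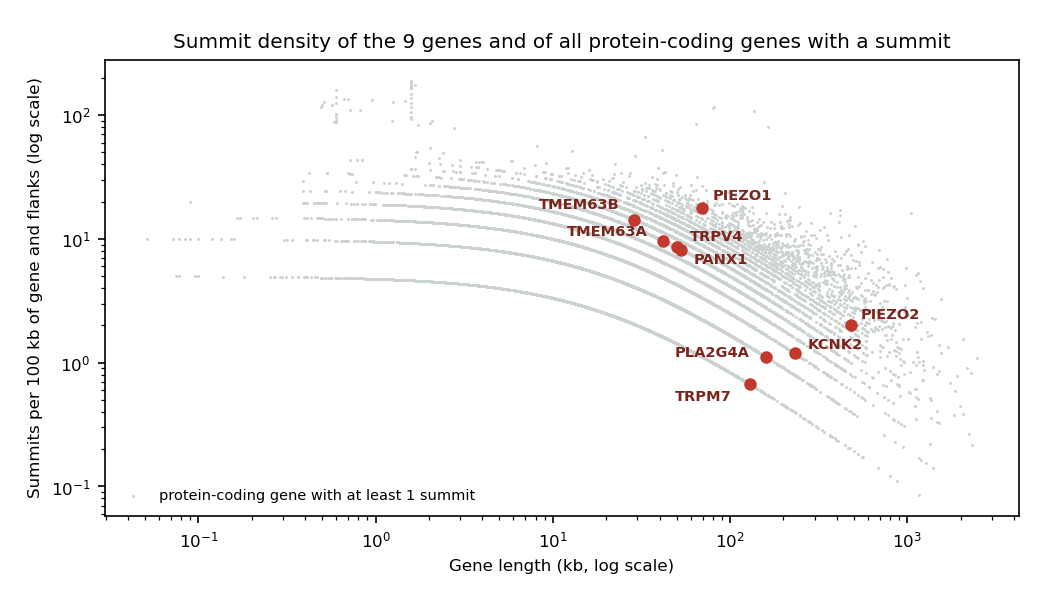
Summits per 100 kb of gene and flanks (y axis, log scale) against gene length in kb (x axis, log scale) for protein-coding genes with at least 1 summit (grey) and the 9 members (red). PIEZO1 stands at 17.8, while TRPM7, PLA2G4A, KCNK2 and PIEZO2 stand at 0.668 to 2.00; the grey lines of points are genes with equal whole-number counts.

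Related genes were read in 6 lists, and 29 of their 40 genes with a listed start had a start summit, against 67.7% of coding genes. Of the 10 genes judged by either end, 7 had one, against 65.7% of all coding genes at either end. Both counts were near the shares of coding genes in general. In the other mechanically gated or swelling-linked channels, 9 of 13 listed starts were open, with a median enrichment of 9.56. PKD1, the polycystin gene mutated in polycystic kidney disease, had 18.2 and LRRC8A, the essential subunit of the volume-regulated anion channel, had 12.6. No summit was found at the starts of TMEM63C, KCNK10, ANO1 and ANO6 or at the ends of TMC1 and TRPV2. Of the K2P genes related to KCNK2, KCNK10 (TREK-2) had no start summit, whereas KCNK4 (TRAAK) had a weak one (enrichment 1.89, pileup 60).

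Among partners and regulators of such channels, 5 of 6 had a start summit, led by TMEM120A (15.6) and ATP2A2 (12.6), the calcium pump of the endoplasmic reticulum; STOML3 had none. Of the ATP release and purinergic genes, 1 of 4 listed starts was open, that of P2RX4 (5.35), and P2RY2 had 6.73 at a gene end. PANX3, the connexin gene GJA1 and the ATP-gated channel gene P2RX7 had none at their starts. In the list of phospholipases and eicosanoid enzymes 4 of 6 listed starts were open. PLA2G6, a calcium-independent phospholipase gene, had 15.1 and PTGS2, which encodes cyclooxygenase-2, had 9.87, whereas PLA2G4B and PTGS1 had none at their starts and ALOX5 none at its ends.

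In calcium handling and its effectors all 7 listed starts were open. ITPR1, an endoplasmic calcium release channel gene, had 16.0 and CAPN1, a calpain gene, had 13.3. NFATC1 had the lowest value of that list, 2.14. In the contractility list 3 of 4 listed starts were open. ROCK1, a kinase that activates myosin, had 17.1 and RHOA, the GTPase upstream of it, had 16.2, whereas ROCK2 had 8.83. MYL9 had 5.92 at a gene end. MYLK, the gene of myosin light chain kinase, had no summit at its listed start. These lists are small, and no difference between a list and all coding genes was tested.

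**Figure D5:**
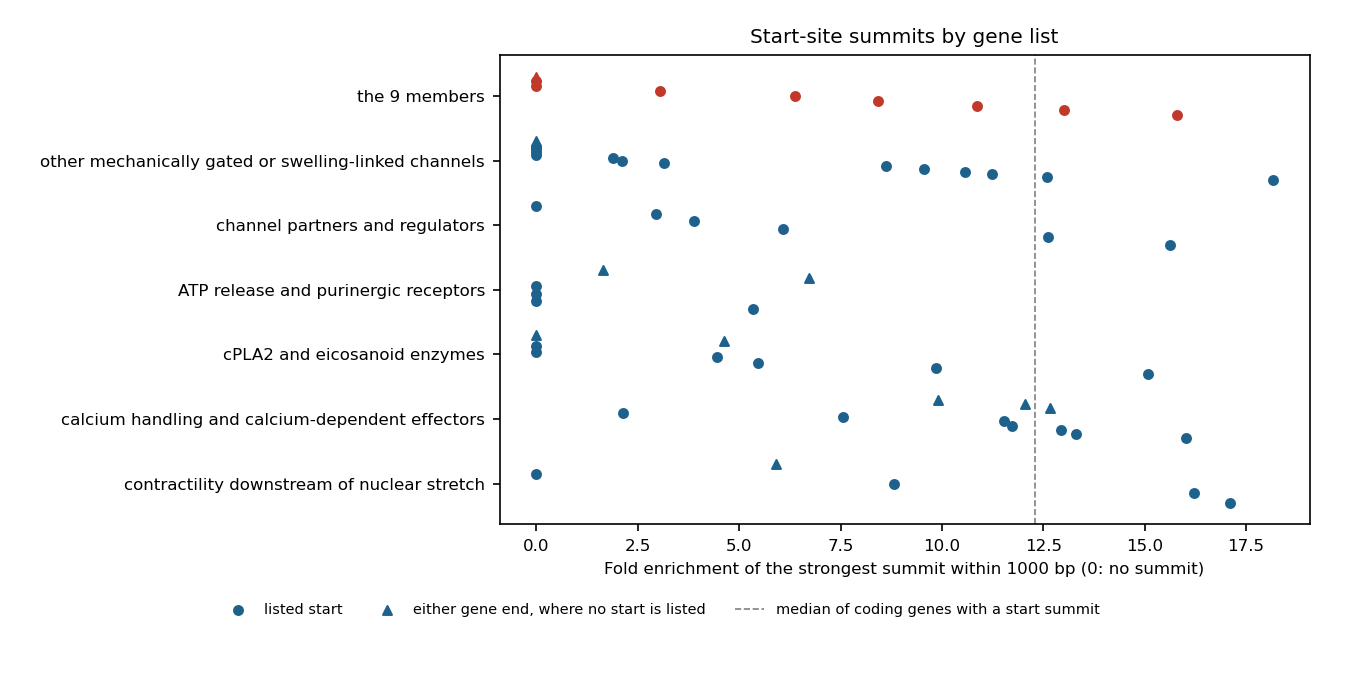
Fold enrichment (x axis) of the strongest summit within 1000 bp of a listed start (circles) or, where no start is listed, of either gene end (triangles), for the 9 members (red) and 6 lists of related genes (blue); 0 means no summit, and heights within a row only separate points. The dashed line is the median of coding genes with a start summit, 12.3; the 6 members with a start summit span 3.05 to 15.8, and KCNK2, PLA2G4A and TRPV4 stand at 0.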

How the data were processed

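The deposited file was 1 list of 10 columns without a header, pooled over 12 libraries. Per the submitters' processing notes, fastp 0.20.0, Bowtie2 2.4.3, SAMtools, deepTools 3.5.0, MACS2 2.2.7.1 and the build hg38 were used; their settings and the way libraries were pooled are not given in the sources used here. The deposited score, fold enrichment (a ratio) and −log10 p and q values are the authors'. The lowest deposited −log10 q was 1.30.

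Pileup and background were solved from enrichment, taken as (pileup + 1)/(background + 1), and p, taken as a Poisson tail. The pileup was whole within 0.05 in 99.96% of lines and at all 57 member summits. The recovery was tested on simulated data. Gene spans and names came from RefSeq GRCh38.p14, and starts from its promoter table, which covers 15843 of 20037 coding genes; 8 of 9 members matched. Exon boundaries were not used here. ORAI1, on the calcium list, is not typed as coding in the gene table and was left out.

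The design planned a count-based test between concentrations in case the file held counts per library; no column belongs to a library, so it was not run. Counts, medians and percentiles are descriptions. Members, lists and rules were chosen with earlier results of these data known. The text names all 9 members, neighbours that share or hold their summits, and from each list the 2 highest starts and every gene without a summit. NFATC1, KCNK4, ROCK2, MYL9 and the markers were named after their values were seen. Python 3.11.15, numpy 2.4.6, scipy 1.17.1 and numba 0.67.0 were used.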

Additional observations from a re-analysis of the deposited data

How the results depend on the processing

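The members with an open start numbered 6 with a start window of 500 or 2500 bp, at a −log10 q of at least 10, with any overlap of the interval and with either gene end. The 57 summits became 98 with flanks of 50 kb and 39 to 48 under the other 5 alternatives. The median start value of 9.65 was the same with both other windows; as a pileup it was 726.5, against 822 for all coding genes. The related genes with an open start numbered 26 to 31. Density per member moved by more than 1.5 times in 5 of 27 settings: in KCNK2 to 0.398 and in TMEM63A to 4.85 at a −log10 q of at least 10, in PIEZO1 to 8.90 there, in KCNK2 to 0.795 with each interval once, and in TRPM7 to 0 in the span alone, because its summit lies 20 bp outside. Percentiles left their counting interval in 7 of 24 settings, in PIEZO1, TMEM63B and PANX1. No paired analysis was possible because the list has no value per library; the replicate block, the runs without single replicates, edgeR and DESeq2 were not run.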

Other observations

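Between 10 and 50 kb outside the 9 genes lay 41 further summits, unevenly divided: 11 around PIEZO1, 11 around TRPV4, 8 around TMEM63B, 6 around TMEM63A, 3 around PLA2G4A and 2 around KCNK2. PIEZO2, TRPM7 and PANX1 had 0 there.

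Several of the related genes without a summit at a listed start or gene end had strong sites inside the gene. The highest enrichment inside ANO6, a calcium-activated scramblase gene, was 17.9 and inside TMC1, the channel gene of hair cells, 16.6. Inside MYLK, which had 29 summits in its span and flanks, it was 13.8, and inside ANO1, a calcium-activated chloride channel gene, 11.5. For comparison, PANX1 had 13.1 inside the gene, the highest of the 9 members. STOML3, GJA1 and ALOX5 had 0 summits in the span or within 10 kb. The starts used are those of the promoter table, and sites at starts it does not list count as internal.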
